A study of Rattus norvegicus with 6 samples.

Results

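The 9 genes described here encode the calcium-permeable channel subunits TRPC1 and TRPC6, the calcineurin subunits PPP3CA, PPP3CB and PPP3R1, the transcription factors NFATC1, NFATC3 and NFATC4, and the calcineurin regulator RCAN1. They were taken by symbol from the authors' comparison tables, in which human symbols in capitals stand beside rat Ensembl gene IDs. Each symbol paired with 1 ID, so the set is 9 of the 26319 genes in the count table. TRPC5, the channel that the compound AC1903 inhibits, had no paired ID and was not analysed here.

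Glomeruli, the capillary tufts in which the kidney filters blood, were isolated from Sprague Dawley rats and their messenger RNA sequenced, in 3 groups of 2. The first group carried an AT1R transgene (AT1R Tg), AT1R being the angiotensin II type 1 receptor, and received AC1903, at ages of 23.0 and 20.4 weeks for replicates 1 and 2. The second carried the same transgene and received vehicle, at 20.4 and 17.4 weeks. The third was wild type (WT), labelled as vehicle-treated, at 20.4 and 21.9 weeks. The labels name neither the promoter nor the receptor sequence of the transgene, and they give no dose of AC1903.

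TRPC channels admit calcium and other cations downstream of receptors that couple to phospholipase C, AT1R among them. Calcium bound to calmodulin activates the phosphatase calcineurin, which strips phosphates from NFATC proteins so that they enter the nucleus. RCAN1 binds and restrains calcineurin, and one of its transcripts is itself a target of NFAT, which closes a feedback loop. In podocytes, the epithelial cells that wrap the glomerular capillaries, inherited gain-of-function changes in TRPC6 cause scarring kidney disease, and calcineurin inhibitors are used to treat proteinuria. Calcineurin and NFATC activity is set after translation, so a transcript level is no measure of it.

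The AT1R Tg AC1903 libraries totalled 12325515 and 12637582 expected counts, the AT1R Tg vehicle libraries 13464600 and 14230770, and the WT libraries 25045081 and 36026772, so the transgenic libraries were the shallower ones. Levels are given as CPM, expected counts relative to library size after TMM scaling, which evens out differences in library composition. CPM is not divided by gene length, so genes are compared across libraries and not with each other. A 95% interval of a fold change comes from edgeR's quasi-likelihood fit over all 6 libraries, and an adjusted p is that test's p after Benjamini-Hochberg correction over the 13426 genes tested, with 0.05 as the threshold. All 9 genes passed the filter on low counts. Ages differ within every group, which makes its samples separate rats. Only 2 of them stand behind each mean and SD.

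None of the 9 genes passed in any of the 3 comparisons. The lowest adjusted p among their 27 changes was 0.225, for RCAN1 in AT1R Tg vehicle against WT. In edgeR, the share of all tested genes that passed was 0% for AC1903 against vehicle, 0.0745% for vehicle against WT and 0.0372% for AC1903 against WT. At an unadjusted p under 0.05 the set held 1, 1 and 0 genes in those comparisons, against 8.12%, 11.9% and 11.1% of all genes tested. By DESeq2 none of the 9 was called either, beside 0.499%, 4.17% and 1.35% of all genes. A test for any difference among the 3 groups called none of the 9 and 0.0447% of all genes, with RCAN1 at the lowest adjusted p of the set (0.358).

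**Figure D1:**
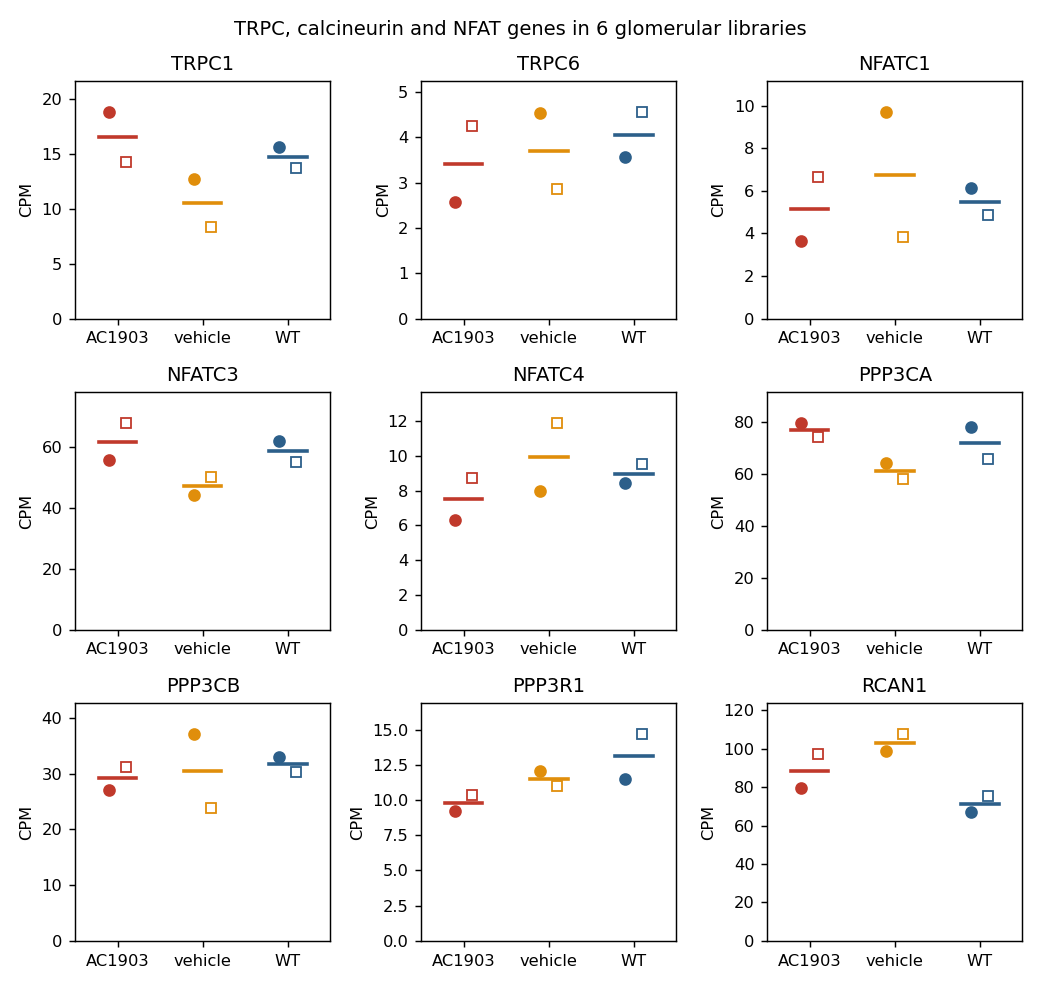
Level of each gene in CPM (y axis, from 0) in the 6 libraries, by group (x axis), with replicate 1 as a filled circle, replicate 2 as an open square and a bar at the group mean. RCAN1 is highest in the AT1R Tg vehicle libraries (98.9 and 108 CPM) and lowest in WT (67.0 and 75.3 CPM), while TRPC6 lies between 2.58 and 4.55 CPM with all groups overlapping.

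The sequence just upstream of a start site is shown for RCAN1, the member with the smallest p, and for TRPC6, the podocyte channel of the set. Both are the 300 bases from 250 before to 50 after the RefSeq start site in the rat build GRCr8, with the NFAT core letters GGAAA in capitals on either strand (TTTCC where the core lies on the opposite strand). The RCAN1 window lies at chr11:45118187-45118486 on the minus strand and the TRPC6 window at chr8:14043966-14044265 on the plus strand.
RCAN1: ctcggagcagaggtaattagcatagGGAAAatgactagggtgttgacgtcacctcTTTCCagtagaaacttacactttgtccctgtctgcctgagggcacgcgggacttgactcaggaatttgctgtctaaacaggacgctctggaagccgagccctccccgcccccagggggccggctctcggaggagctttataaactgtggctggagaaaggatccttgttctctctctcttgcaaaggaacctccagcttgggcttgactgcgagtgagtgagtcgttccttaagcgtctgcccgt
TRPC6: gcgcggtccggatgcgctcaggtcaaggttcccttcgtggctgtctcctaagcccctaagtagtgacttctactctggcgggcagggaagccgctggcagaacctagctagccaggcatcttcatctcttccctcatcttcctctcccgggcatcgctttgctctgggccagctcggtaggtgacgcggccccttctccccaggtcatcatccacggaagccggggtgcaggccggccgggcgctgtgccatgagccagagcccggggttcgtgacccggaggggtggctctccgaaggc

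The RCAN1 window held 2 such matches, with first bases 225 and 195 before the start site, and the TRPC6 window held 0. PPP3CB and PPP3R1 held 1 each and PPP3CA held 0. Of all 33469 RefSeq windows of this length 62.7% held at least 1 match, so the letters alone are common. The start sites used for RCAN1, PPP3CA, PPP3CB and PPP3R1 do not lie at the outer ends of their genes, and that of TRPC6 does. In human and mouse, RCAN1 is known to have alternative first exons, of which an internal one answers to NFAT. Which first exon the RCAN1 window belongs to was not examined. The deposited counts are per gene and do not separate such transcripts. Rat promoter entries were matched by symbol for 5 of the 9 genes, and TRPC1, NFATC1, NFATC3 and NFATC4 had none.

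RCAN1 (ENSRNOG00000001979) had the largest log2 change of the set in AT1R Tg vehicle against WT. The AT1R Tg AC1903 libraries held 79.4 and 97.4 CPM of RCAN1, the AT1R Tg vehicle libraries 98.9 and 108 CPM, and the WT libraries 67.0 and 75.3 CPM. The vehicle libraries lay above both WT libraries and above both AC1903 libraries, where AC1903 replicate 2 came close to vehicle replicate 1. The means were 88.4 ± 12.7 CPM in AC1903, 103 ± 6.12 CPM in vehicle and 71.1 ± 5.84 CPM in WT (SD, n = 2 each).
Against WT, vehicle was 1.45-fold higher (95% interval 1.11 to 1.89, unadjusted p = 0.0113), which did not pass in edgeR after adjustment (adjusted p = 0.225). AC1903 was 0.857-fold of vehicle (interval 0.658 to 1.12, adjusted p = 0.713 in edgeR) and 1.24-fold of WT (interval 0.955 to 1.62, adjusted p = 0.503). The authors' deposited table gives RCAN1 a log2 change of 0.56 in vehicle against WT, with an adjusted p of 0.0746 that also missed the threshold. Of the genes that the authors' deposited tables list, 0.378% passed for AC1903 against vehicle and 4.42% for vehicle against WT, and none of the 9 was among them.

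The catalytic subunits of calcineurin carry the phosphatase activity. PPP3CA (ENSRNOG00000009882), the alpha isoform, stood at 79.7 and 74.3 CPM in AC1903, 64.3 and 58.2 CPM in vehicle, and 78.4 and 65.9 CPM in WT. Both vehicle libraries were the lowest of the 6. The fold change was 1.26 for AC1903 against vehicle (interval 0.973 to 1.62), 0.85 for vehicle against WT (interval 0.659 to 1.09) and 1.07 for AC1903 against WT (interval 0.828 to 1.37), with adjusted p = 0.632, 0.632 and 0.851 in edgeR.
PPP3CB (ENSRNOG00000007757), the beta isoform, stood at 27.1 and 31.3 CPM in AC1903, 37.1 and 23.8 CPM in vehicle, and 33.1 and 30.4 CPM in WT. The vehicle libraries were the highest and the lowest of the 6, so every group overlapped, and its changes ran from 0.921-fold for AC1903 against WT to 0.962-fold for vehicle against WT.
PPP3R1 (ENSRNOG00000022857), the calcium-binding regulatory subunit, stood at 9.23 and 10.4 CPM in AC1903, 12.03 and 10.99 CPM in vehicle, and 11.5 and 14.7 CPM in WT. Its AC1903 libraries lay below all others, at 0.852-fold of vehicle (interval 0.578 to 1.26, adjusted p = 0.802 in edgeR) and 0.749-fold of WT (interval 0.512 to 1.10, adjusted p = 0.540).

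Of the channel subunits, TRPC1 (ENSRNOG00000009601), which can join TRPC4 and TRPC5 in mixed channels, stood at 18.8 and 14.2 CPM in AC1903, 12.7 and 8.38 CPM in vehicle, and 15.6 and 13.7 CPM in WT. Its vehicle libraries were the lowest of the 6, while AC1903 and WT overlapped. The means were 16.5 ± 3.23 CPM in AC1903, 10.5 ± 3.03 CPM in vehicle and 14.7 ± 1.34 CPM in WT (SD, n = 2 each). AC1903 was 1.57-fold of vehicle (interval 1.02 to 2.41, unadjusted p = 0.0438) and did not pass in edgeR after adjustment (adjusted p = 0.607). Vehicle was 0.72-fold of WT (interval 0.470 to 1.10, adjusted p = 0.554) and AC1903 1.13-fold of WT (interval 0.740 to 1.72, adjusted p = 0.837). The authors' deposited table gives TRPC1 log2 changes of 0.64 for AC1903 against vehicle and -0.45 for vehicle against WT, with adjusted p-values of 0.961 and 0.667.

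TRPC6 (ENSRNOG00000006324), a channel opened by diacylglycerol, stood at 2.58 and 4.24 CPM in AC1903, 4.53 and 2.85 CPM in vehicle, and 3.55 and 4.55 CPM in WT. All groups overlapped. These levels rest on 31 and 53 counts in AC1903, 64 and 35 in vehicle, and 99 and 168 in WT. The exact 95% Poisson interval of AC1903 replicate 1, which covers counting error only, ran from 1.75 to 3.66 CPM, and that of WT replicate 2 from 3.89 to 5.30 CPM. AC1903 was 0.922-fold of vehicle (interval 0.446 to 1.91) and vehicle was 0.911-fold of WT (interval 0.451 to 1.84). Both intervals reach below a 2-fold loss, so they do not exclude one. The adjusted p-values in edgeR were 0.953 and 0.941.

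A relative in the TRPC family was read from a list of TRP and store-operated channels. TRPC4 stood at 1.41 and 0.56 CPM in AC1903, 1.42 and 1.63 CPM in vehicle, and 1.61 and 1.08 CPM in WT. Its level was 1.63 CPM or less throughout. TRPC2 and TRPC7 had no paired symbol.

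Among the transcription factors, NFATC3 (ENSRNOG00000018618), known from thymocytes and smooth muscle, stood at 55.5 and 67.7 CPM in AC1903, 44.3 and 50.1 CPM in vehicle, and 62.0 and 55.0 CPM in WT. Its vehicle libraries were the lowest of the 6, as for TRPC1 and PPP3CA. The share of all tested genes with that order was not counted. AC1903 was 1.31-fold of vehicle (interval 0.995 to 1.71, adjusted p = 0.612 in edgeR), vehicle was 0.807-fold of WT (interval 0.616 to 1.06, adjusted p = 0.539) and AC1903 was 1.05-fold of WT (interval 0.805 to 1.38, adjusted p = 0.890).
NFATC1 (ENSRNOG00000017146), the factor of the set known for switching on its own gene in osteoclasts and lymphocytes, stood at 3.66 and 6.63 CPM in AC1903, 9.70 and 3.83 CPM in vehicle, and 6.14 and 4.85 CPM in WT. The spread within vehicle exceeded every difference between group means, and the exact Poisson intervals of its vehicle libraries, 8.14 to 11.5 CPM and 2.81 to 5.09 CPM, did not meet. Its fold change was 0.76 for AC1903 against vehicle (interval 0.346 to 1.67) and 1.24 for vehicle against WT (interval 0.574 to 2.66).
NFATC4 (ENSRNOG00000020482), known from heart muscle and neurons, stood at 6.32 and 8.71 CPM in AC1903, 7.997 and 11.9 CPM in vehicle, and 8.43 and 9.54 CPM in WT, with overlap in each comparison. It was 0.758-fold in AC1903 against vehicle (interval 0.463 to 1.24) and 1.10-fold in vehicle against WT (interval 0.683 to 1.78). NFATC2, the remaining calcium-regulated family member, lay between 0.24 and 1.75 CPM over the 6 libraries.

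**Figure D2:**
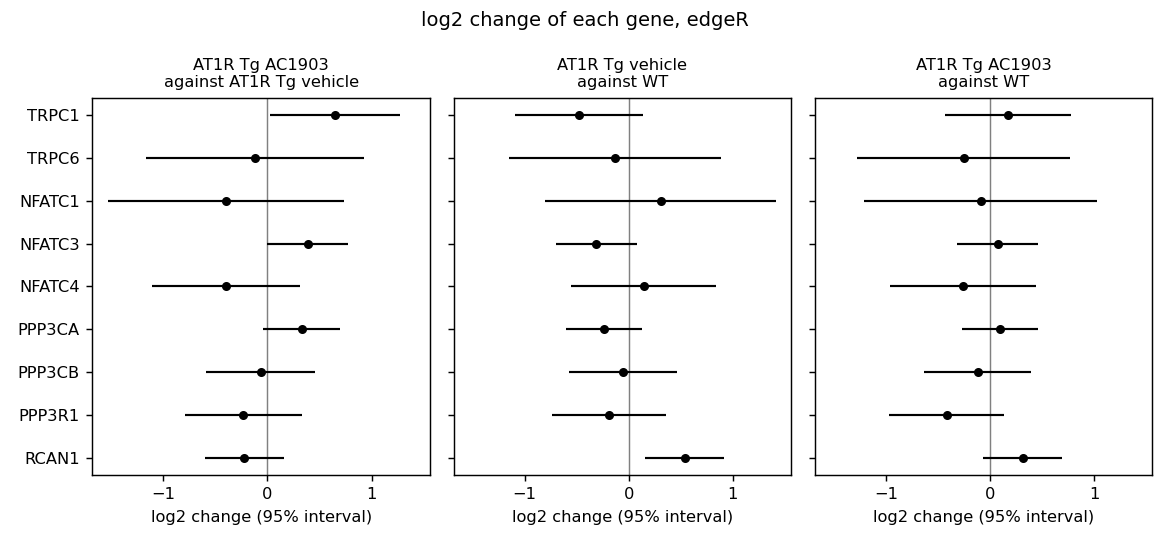
Log2 change of each gene (points) with its 95% interval (lines) from edgeR in the 3 comparisons (panels), where 0 is no difference and a positive value is higher in the group named first. Of 27 intervals, those of TRPC1 in AC1903 against vehicle and of RCAN1 in vehicle against WT lie wholly above 0, and neither gene passed after adjustment.

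Counting groups that did not overlap gave 5 of the 9 genes for AC1903 against vehicle, where 38.3% of all genes tested did not overlap. TRPC1, NFATC3 and PPP3CA were higher in AC1903 (19.9% of all genes were) and PPP3R1 and RCAN1 lower (18.4%). For vehicle against WT it gave 4, with RCAN1 higher (20.6% of all genes) and TRPC1, NFATC3 and PPP3CA lower (23.4%), where the share of all genes in either direction was 44%. For AC1903 against WT it gave 2, with RCAN1 higher (24.2% of all genes) and PPP3R1 lower (23.5%), where the share in either direction was 47.7%. The first and second comparisons share the vehicle libraries, so opposite signs in them are not independent. The median log2 change of the 9 genes was -0.12 for AC1903 against vehicle, -0.13 for vehicle against WT and -0.091 for AC1903 against WT, beside -0.019, -0.029 and 0.0019 over all genes tested. With 1 library left out the member medians ran from -0.35 to 0.29, from -0.31 to -0.0033 and from -0.23 to 0.081 in those comparisons. The median turned positive without AC1903 replicate 1 or vehicle replicate 1 for AC1903 against vehicle, and without AC1903 replicate 1 or WT replicate 1 for AC1903 against WT.

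Taken 1 at a time and under this model alone, the intervals also bound what could have been missed. They are not adjusted for the number of changes. Adding proximal tubule markers to the model, as described below, widened SEs in vehicle against WT. For RCAN1 the SE was 0.33 in place of 0.17, and for PPP3R1 0.48 in place of 0.24. For AC1903 against vehicle, 5 of the 9 intervals lay wholly within a 2-fold change in either direction, those of NFATC3, PPP3CA, PPP3CB, PPP3R1 and RCAN1. For vehicle against WT 6 did, with NFATC4 added to those 5, and for AC1903 against WT 7 did, with NFATC4 and TRPC1 added. TRPC6 and NFATC1 were bounded in no comparison. The standard deviation of log2 CPM over the 6 libraries ran from 0.18 for PPP3CA to 0.52 for NFATC1.

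Ratios of counts within a library do not depend on library scaling, and gene length cancels when 1 ratio is compared across libraries. These pairs were chosen after the levels had been seen. The ratio of RCAN1 to PPP3CA, the regulator over a catalytic subunit, was 0.997 and 1.31 in AC1903, 1.54 and 1.85 in vehicle, and 0.855 and 1.14 in WT. Both vehicle ratios exceeded the other 4. The ratio of NFATC3 to NFATC4 was 8.77 and 7.77 in AC1903, 5.54 and 4.21 in vehicle, and 7.35 and 5.76 in WT, with the vehicle libraries lowest. Groups of 2 allow an exact two-sided permutation p no smaller than 0.333, so neither ratio could pass such a test.
The ratio of PPP3CA to PPP3CB was 2.94 and 2.38 in AC1903, 1.73 and 2.44 in vehicle, and 2.37 and 2.17 in WT, and the groups AC1903 and vehicle overlapped. TRPC1 to TRPC6 was 7.29 and 3.36 in AC1903, 2.80 and 2.94 in vehicle, and 4.39 and 3.01 in WT, highest in AC1903 replicate 1, which had the fewest TRPC6 counts. NFATC3 to NFATC1 was 15.2 and 10.2 in AC1903, 4.57 and 13.1 in vehicle, and 10.1 and 11.3 in WT.

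**Figure D3:**
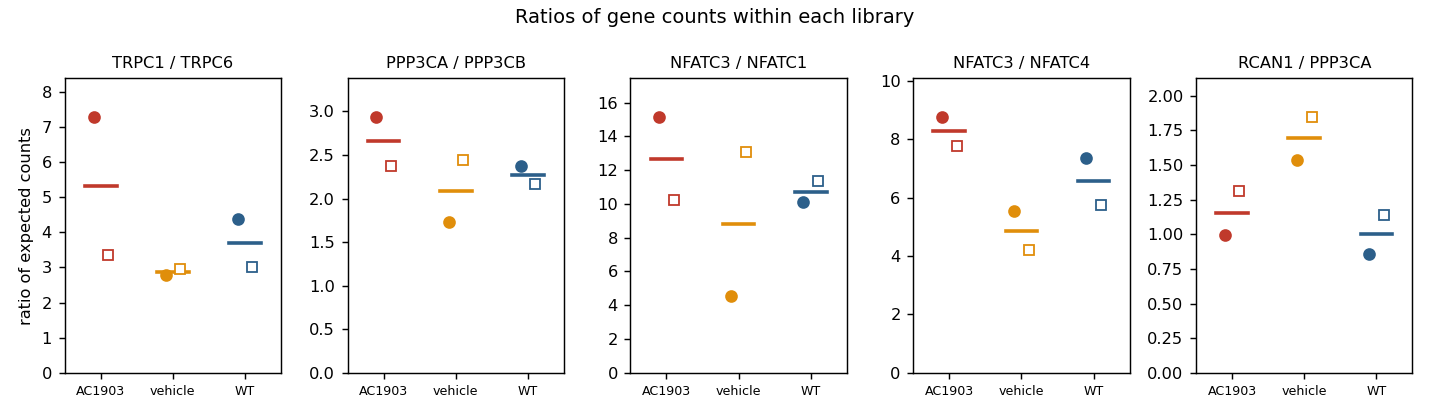
Ratio of the expected counts of 2 genes within each library (y axes, from 0) by group (x axes), with replicate 1 as a filled circle, replicate 2 as an open square and a bar at the group mean. RCAN1 over PPP3CA is 1.54 and 1.85 in AT1R Tg vehicle and at most 1.31 elsewhere.

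The libraries were not alike in cell content. The summed level of 15 podocyte marker genes was 9338 and 12195 CPM in AC1903, 14878 and 7913 CPM in vehicle, and 13987 and 11760 CPM in WT. TRPC6, NFATC1 and PPP3CB were each higher in AC1903 replicate 2 than in replicate 1 and higher in vehicle replicate 1 than in replicate 2, as the podocyte sum was. PPP3R1 followed the same order in AC1903 and vehicle. In WT the order held for NFATC1 and PPP3CB but not for TRPC6 or PPP3R1. In each group the higher podocyte sum came from the rat aged 20.4 weeks. The part of age in that order was not tested. With whole glomeruli, fewer cells of a type and less RNA per cell cannot be told apart.
Proximal tubule markers summed to 5588 and 5538 CPM in AC1903, 5419 and 10645 CPM in vehicle, and 3690 and 2305 CPM in WT, and all 12 measured members were higher in vehicle than in WT without overlap (20.6% of all genes were), at a median log2 change of 1.35. RCAN1 was also highest in vehicle replicate 2. Adding the mean log2 level of the proximal tubule markers to the model gave RCAN1 a log2 change in vehicle against WT of 0.56 with an SE of 0.33 (unadjusted p = 0.128 in edgeR), beside 0.54 with an SE of 0.17 without it. Because that level runs with the groups, tubule content and group cannot be told apart for RCAN1. Adding the podocyte markers gave 0.52 with an SE of 0.17. Leukocyte markers summed to 142 and 222 CPM in AC1903, 79.5 and 91.9 CPM in vehicle, and 87.0 and 126 CPM in WT, with all 11 members positive in AC1903 against vehicle. Glomerular endothelial markers summed to 9370 and 7290 CPM in AC1903, 6615 and 7121 CPM in vehicle, and 9444 and 9377 CPM in WT. The vehicle libraries were thus the lowest of the 6, as they were for TRPC1, NFATC3 and PPP3CA, and 10 of the 12 endothelial markers were lower in vehicle than in WT without overlap (23.4% of all genes were). The part of leukocyte and endothelial RNA in the values of TRPC1, NFATC3 and PPP3CA was not tested.

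**Figure D4:**
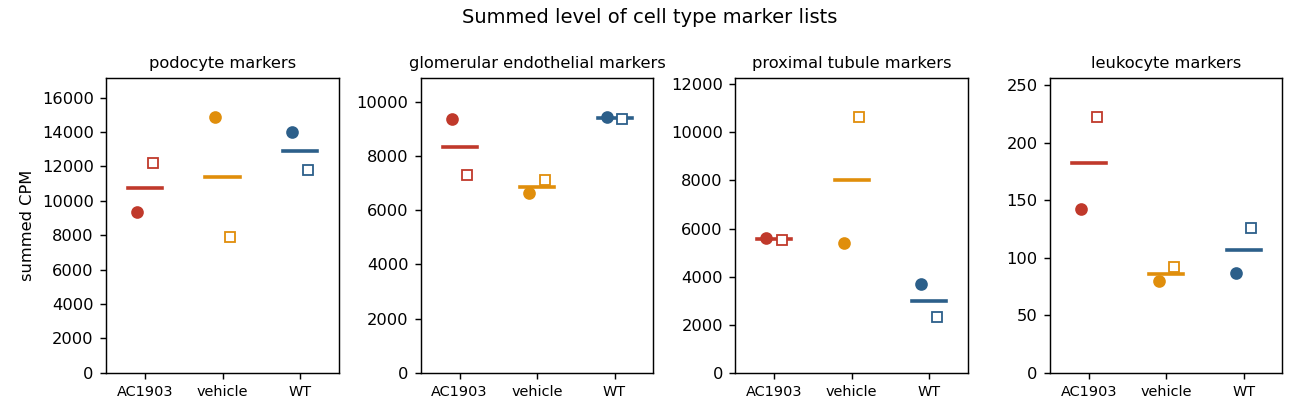
Summed level of marker genes of 4 cell types in CPM (y axes, from 0) in the 6 libraries by group (x axes), with replicate 1 as a filled circle, replicate 2 as an open square and a bar at the group mean. Podocyte markers are highest in vehicle replicate 1 (14878 CPM) and lowest in vehicle replicate 2 (7913 CPM), which has the highest proximal tubule sum (10645 CPM).

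The surrounding pathway was read from 7 lists of other genes, and none of their genes passed in any comparison in edgeR with the filter on low counts. With no filter, edgeR called TRPV1, TRPV4, NOX4 and ACP5 in vehicle against WT and AGTR1 (ENSRNOG00000010640), RGS2 and FKBP5 in AC1903 against WT among the genes described next, with adjusted p-values from 1.15e-05 to 0.0193. Upstream, 17 genes lead from AT1R to phospholipase C, with 16 symbols because AGTR1 pairs with 2 rat genes. AGTR1 (ENSRNOG00000010640) stood at 59.2 and 65.3 CPM in AC1903, 99.3 and 95.5 CPM in vehicle, and 98.2 and 151 CPM in WT. AGTR1 (ENSRNOG00000018346) stood at 56.1 and 70.6 CPM in AC1903, 87.8 and 89.9 CPM in vehicle, and 85.3 and 112 CPM in WT. In each, the AC1903 libraries lay below the others, and the log2 changes against WT were -0.999 and -0.637 (adjusted p = 0.308 and 0.354 in edgeR). DESeq2 called AGTR1 (ENSRNOG00000010640) in that comparison (adjusted p = 0.00753) and not the other. Without WT replicate 2 the 2 log2 changes were -0.66 and -0.43 in edgeR. With the proximal tubule level in the model they were -0.61 and -0.44. Reads that the 2 AGTR1 genes share could be split between them, so their values are uncertain, and the labels do not say whether transgene reads count towards either. Neither AGTR1 gene was higher in AT1R Tg vehicle than in WT without overlap. RGS2, which damps signalling from receptors coupled to Gq, stood at 44.2 and 54.8 CPM in AC1903, 71.3 and 61.7 CPM in vehicle, and 72.3 and 119 CPM in WT (adjusted p = 0.323 in edgeR and 0.0476 in DESeq2 for AC1903 against WT). The log2 change of RGS2 there was -0.95, -0.55 without WT replicate 2 and -0.39 with the proximal tubule level in the model. Markers of mesangial and smooth muscle cells summed to 590 and 666 CPM in AC1903. The sums were 813 and 651 CPM in vehicle, and 842 and 921 CPM in WT. In AC1903 against WT, 4 of the 8 were lower without overlap (23.5% of all genes were) and 3 had positive changes. The part of RNA from these cells in the AGTR1 and RGS2 values was not tested. The median log2 change of the list from AT1R to phospholipase C was -0.026 for AC1903 against vehicle and -0.15 for vehicle against WT.

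Of 18 other TRP and store-operated channel genes, the heat- and capsaicin-gated channel TRPV1 stood at 8.73 and 8.15 CPM in AC1903, 11.3 and 15.0 CPM in vehicle, and 4.49 and 2.58 CPM in WT. The log2 change of TRPV1 in vehicle against WT was 1.90, which missed the edgeR threshold (adjusted p = 0.149) although DESeq2 called it (adjusted p = 0.000272). The mechanosensitive channel TRPV4 stood at 27.7 and 38.5 CPM in AC1903, 30.4 and 41.3 CPM in vehicle, and 20.3 and 16.8 CPM in WT (log2 change 0.95 in vehicle against WT, adjusted p = 0.180 in edgeR and 0.0197 in DESeq2). Proximal tubule markers were higher in the same libraries, and their part in these values cannot be told apart from that of the group. TRPM2, a channel abundant in leukocytes, stood at 2.33 and 4.72 CPM in AC1903, 0.212 and 0.733 CPM in vehicle, and 2.19 and 2.01 CPM in WT. The TRPM2 levels in vehicle rest on only 3 and 9 counts, and those in AC1903 on 28 and 59. For AC1903 against vehicle its adjusted p was 0.538 in edgeR and 0.0455 in DESeq2, and the part of leukocyte RNA in TRPM2 was not tested.
Among 12 genes of calcium handling and calmodulin, the plasma membrane calcium pump ATP2B4 stood at 12.2 and 14.9 CPM in AC1903, 11.3 and 10.6 CPM in vehicle, and 9.37 and 4.93 CPM in WT (adjusted p = 0.398 in edgeR for AC1903 against WT). The kinase CAMKK2, which calmodulin activates, stood at 5.74 and 6.15 CPM in AC1903, 4.46 and 3.01 CPM in vehicle, and 3.37 and 2.52 CPM in WT (adjusted p = 0.412). The median log2 change of this list in vehicle against WT was 0.23, with 8 of the 12 genes positive.

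**Figure D5:**
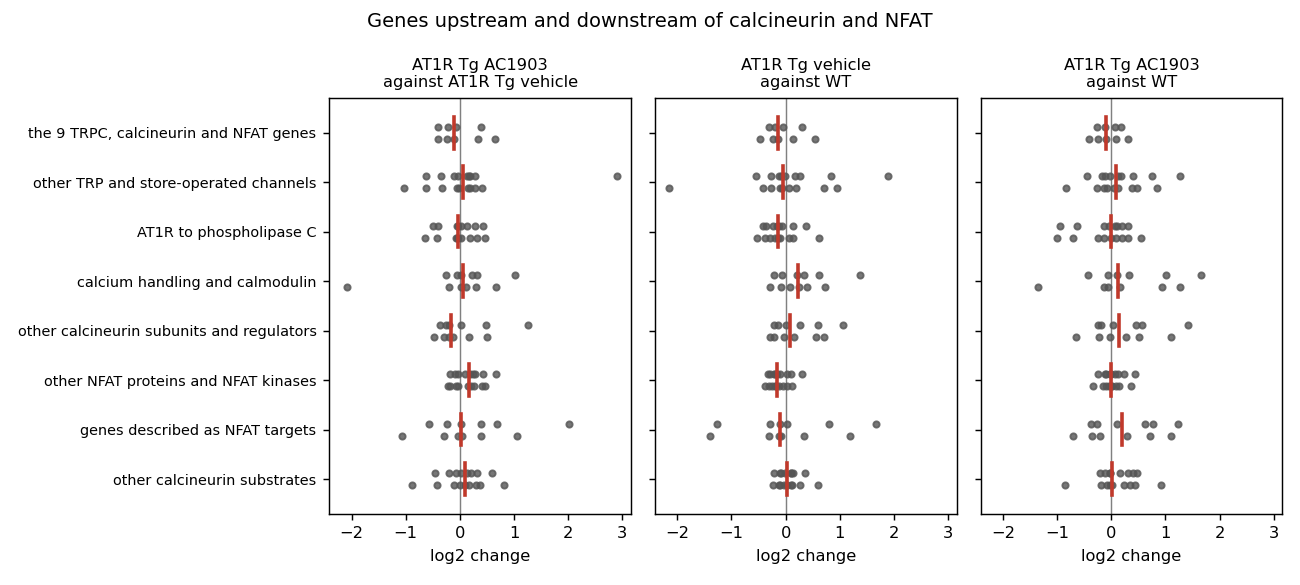
Log2 change (x axis) of every tested gene of the 9-gene set and of 7 related lists (rows) in the 3 comparisons (panels), with 1 point per gene and a red bar at each list's median. A positive value is higher in the group named first, and list medians lie between -0.17 and 0.23.

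Among 12 genes of the list of calcineurin subunits and regulators, PPP3CC, the gamma catalytic isoform, stood at 5.91 and 10.1 CPM in AC1903, 11.5 and 6.84 CPM in vehicle, and 5.20 and 5.94 CPM in WT. RCAN2, a relative of RCAN1, stood at 184 and 140 CPM in AC1903, 125 and 107 CPM in vehicle, and 121 and 148 CPM in WT. For AC1903 against vehicle RCAN2 had a log2 change of 0.48, where RCAN1 had -0.22, and RCAN2 did not pass (adjusted p = 0.606 in edgeR). The RCAN2 value was 0.24 without AC1903 replicate 1 and 0.14 with age as a covariate. FKBP5, an immunophilin of the FK506-binding family, stood at 215 and 161 CPM in AC1903, 101 and 55.6 CPM in vehicle, and 92.6 and 49.0 CPM in WT. Its log2 change against WT was 1.41 (adjusted p = 0.316 in edgeR and 0.0127 in DESeq2). For PPIA, cyclophilin A, 2 rat genes were listed, and the 1 named by the rule (ENSRNOG00000007183) stood at 90.2 and 67.8 CPM in AC1903, 107 and 97.8 CPM in vehicle, and 110 and 138 CPM in WT (adjusted p = 0.354 in edgeR for AC1903 against WT).

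The 18 other NFAT proteins and NFAT kinases included the osmotic stress factor NFAT5, which does not depend on calcineurin for activation. NFAT5 stood at 226 and 214 CPM in AC1903, 190 and 174 CPM in vehicle, and 235 and 212 CPM in WT (adjusted p = 0.529 in edgeR for vehicle against WT). Among kinases that return phosphates to NFATC proteins and favour their export, CSNK1E stood at 22.1 and 15.8 CPM in AC1903 against 11.4 and 12.5 CPM in vehicle. GSK3B stood at 21.1 and 21.8 against 16.7 and 14.3 CPM. Neither passed (adjusted p = 0.582 and 0.631 in edgeR). The CSNK1E log2 change was 0.67, and 0.37 without AC1903 replicate 1. Without overlap, 6 of the 18 listed genes were higher in AC1903 than in vehicle, these 2 among them, beside 19.9% of all genes tested. Of the listed kinases, GSK3A, CSNK1A1, DYRK2 and MAPK9 were among those with lower means in AC1903. In AC1903 against vehicle the median log2 change was 0.17 and 11 of the 18 were above 0. In vehicle against WT the median was -0.17 and 13 were below 0, the vehicle libraries being shared.

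Of 21 genes described as NFAT targets, 12 could be paired and were tested. Their median log2 change was 0.028 for AC1903 against vehicle, -0.094 for vehicle against WT and 0.20 for AC1903 against WT. NOX4, a superoxide- and peroxide-forming oxidase, stood at 57.4 and 63.5 CPM in AC1903, 57.7 and 122 CPM in vehicle, and 38.1 and 18.4 CPM in WT. Its log2 change in vehicle against WT was 1.67 (adjusted p = 0.180 in edgeR and 0.00292 in DESeq2). It ran from 1.03 without vehicle replicate 2 to 2.28 without WT replicate 1, and NOX4, like the proximal tubule markers, was highest in vehicle replicate 2. ACP5, the acid phosphatase of osteoclasts and macrophages, stood at 35.0 and 26.1 CPM in AC1903, 28.6 and 34.0 CPM in vehicle, and 19.7 and 16.3 CPM in WT (adjusted p = 0.191 in edgeR and 0.0407 in DESeq2 for vehicle against WT). The ACP5 log2 change in that comparison was 0.80, and 0.36 with the proximal tubule level in the model.
Of 17 other calcineurin substrates, the transcription factor FOXO3 stood at 20.9 and 17.9 CPM in AC1903, 11.04 and 10.9 CPM in vehicle, and 10.6 and 9.89 CPM in WT (adjusted p = 0.309 in edgeR and 0.0322 in DESeq2 for AC1903 against WT). BAD, a promoter of apoptosis, stood at 6.24 and 4.396 CPM in AC1903 and 10.3 and 9.28 CPM in vehicle, and TFEB, a regulator of lysosomal genes, at 20.8 and 18.5 against 27.2 and 26.7 CPM (adjusted p = 0.576 and 0.606 in edgeR).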

How the data were processed

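Libraries of polyadenylated RNA were made with a stranded kit from isolated glomeruli, per the labels' protocols. The submitters' processing notes name RSEM 1.3.0, STAR 2.5.2b and the build Rnor_5.0. The authors deposited expected counts per Ensembl gene, and 2 tables of log2 fold changes with adjusted p-values, made with a tool that the sources used here do not name. RSEM divides shared reads, so near-identical copies are uncertain.

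Expected counts were rounded, filtered with filterByExpr (13426 of 26319 genes kept) and scaled by TMM. All 6 libraries entered 1 quasi-likelihood fit in edgeR 4.0.16 (R 4.3.3), which left 3 residual degrees of freedom, and tests were two-sided. A standard error is the log2 change divided by the root of its F. The script was checked on simulated counts. DESeq2 (1.42.0), limma-voom (limma 3.58.1), other scalings and filters, a replicate block, age, marker levels and leaving out each library were alternatives. The 2 libraries of a group differed by more than sampling noise, with a chi-square per degree of freedom of at least 17.1. Whether same-numbered replicates deviate together was checked, and the correlations are given with the alternatives.

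The members and lists were chosen with earlier results of these data known. All members were named. Other lists named up to 3 genes of smallest p with a mean of at least 1 CPM, of which the text gives part (some items are not reported here), and TRPC4, NFATC2 and PPP3CC were added as family relatives. Promoter sequences are from RefSeq (GRCr8).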

Additional observations from a re-analysis of the deposited data

How the results depend on the processing

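No member passed under any of the 18 alternatives tried. Over 483 member values the lowest adjusted p was 0.0744, for RCAN1 in vehicle against WT with DESeq2. Its adjusted p ran up to 1 without WT replicate 2 and its log2 change from 0.42 to 0.62, and no RCAN1 value changed sign. TRPC6 was not tested under the 5 CPM filter. Same-numbered libraries did not deviate together (correlations -0.041, 0.0046 and -0.020), so no pairing by replicate number was seen. A pairing by age was not checked. AC1903 replicate 2, vehicle replicate 1 and WT replicate 1 shared an age of 20.4 weeks. With the replicate block 2 genes passed for AC1903 against vehicle and 4 for vehicle against WT. In the latter RCAN1 stood at 0.54 (adjusted p = 0.348 in edgeR), and the block changed no member's call.

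Counts of all genes past the threshold (0 for AC1903 against vehicle, 10 for vehicle against WT and 5 for AC1903 against WT in edgeR) were 67, 560 and 181 with DESeq2 and 114, 774 and 464 with no filter. With age as a covariate 1 passed for AC1903 against vehicle and 4 for vehicle against WT. From the groups compared alone 4 passed for vehicle against WT and 21 for AC1903 against WT, and with the podocyte level, an alternative added after seeing the data, 21 and 22 did. Leaving out 1 library gave 0 to 4, 1 to 530 and 1 to 25, the 530 without vehicle replicate 1, and a group left with 1 library was assumed to vary like the others.

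Signs of small member changes turned in 34 values, and the cause was not tested. Leaving out 1 library for AC1903 against vehicle, the log2 change ran from -0.55 to 0.26 for TRPC6, -0.92 to 0.43 for NFATC1 and -0.35 to 0.29 for PPP3CB. For vehicle against WT it ran from -0.51 to 0.16 for TRPC6, -0.52 to 0.82 for NFATC1, -0.17 to 0.40 for NFATC4 and -0.41 to 0.23 for PPP3CB. For AC1903 against WT it ran from -0.054 to 0.35 for TRPC1, -0.66 to 0.051 for TRPC6, -0.59 to 0.26 for NFATC1, -0.083 to 0.20 for NFATC3 and -0.029 to 0.22 for PPP3CA. With age, NFATC4 stood at 0.011 for AC1903 against vehicle and -0.22 for vehicle against WT, where PPP3CB stood at 0.071. With the proximal tubule level, also added after seeing the data, vehicle against WT gave TRPC6 0.71, NFATC4 -0.24, PPP3CB 0.38, PPP3R1 0.21 and NOX4 -0.073, and AC1903 against WT gave TRPC6 0.39, NFATC1 0.54, NFATC3 -0.12 and PPP3CB 0.22, with member medians of 0.21 and 0.22; that level runs with the groups. With the podocyte level, vehicle against WT gave TRPC6 0.016, NFATC4 -0.0042 and PPP3CB 0.12, and AC1903 against WT gave NFATC1 0.17 and PPP3CB 0.0073. The TRPC1 change for AC1903 against vehicle was 0.27 with age and ran from 0.37 without vehicle replicate 2 to 0.97 without vehicle replicate 1.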

Other observations

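Over the 6 libraries, the genes whose log2 CPM most resembled that of RCAN1 among 11974 genes with a symbol and a mean of at least 1 CPM were PAX8, PRSS12, C4A, LAD1 and KIAA1614, with Pearson r from 0.981 to 0.997. Those most like TRPC6 were COQ4, CHMP4B, S100A11, TMEM43 and PRDX4, with r from 0.972 to 0.986. With 6 points that share group, depth and cell content, 96 genes reached an r above 0.9 with RCAN1 and 111 with TRPC6, so these names describe the 6 libraries only.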
